A study of Rattus with 27 samples.

Results

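The 10 genes described here are regulators of the Bcl2 family, which set whether a cell keeps or permeabilises its mitochondria. They were chosen by name and not by their values: the guardians Bcl2, Bcl2l1 and Mcl1, the effectors Bax and Bak1, and the BH3-only genes Bbc3, Pmaip1, Bcl2l11, Bid and Bad. All 10 were measured, among 14506 genes on the array. Among probes listed with 1 gene symbol, the brightest on average stands for its gene. Bcl2l1, Mcl1 and Bax had a second such probe.

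Apoptosis through the mitochondria is held back by the guardian proteins, which bind and hold the effectors Bax and Bak1. When released and activated, the effectors form pores in the outer mitochondrial membrane, cytochrome c leaves, and caspases are switched on. BH3-only proteins carry the stress signal: each binds the guardians, and some also activate the effectors directly. In the brain the balance of these proteins is known to matter for neuron loss after ischaemia, and in blood and lymphoid tissue it sets how long lymphocytes, granulocytes and red cell precursors live. Much of this control acts on the proteins, through cleavage, phosphorylation and degradation, which an RNA measurement does not see.

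RNA was measured in 9 Sprague Dawley rats, each giving a brain, a white blood cell and a spleen sample, so 27 arrays in all, taken at 6 h. In each tissue 3 arrays are labelled vehicle (rats 2, 4 and 5), 3 model (rats 1, 2 and 3) and 3 sham (rats 3, 4 and 5). Sham rats were anaesthetised and had the vessels separated, whereas the other groups underwent middle cerebral artery occlusion (MCAO), a model of ischaemic stroke. In the treatment protocol the operated groups are a vehicle control and rats given 25 mg/kg of YJ, the Yiqi Jiedu formula of the series title, and the labels do not settle which of the operated groups received it, so they are called vehicle-labelled and model-labelled. Brain and spleen were homogenised and white cells were separated from whole blood, and in such bulk samples fewer cells of a type and less RNA per cell cannot be told apart.

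Values are log2 intensities, in which a difference of 1 is a doubling. The neuron markers averaged 8.84 to 9.99 in brains and 4.10 to 4.62 in the other tissues, and the T cell markers averaged 8.05 to 9.09 in white cells and 6.71 to 8.11 in spleens, as the tissue labels say. Several arrays stood apart. The brain of sham rat 5 averaged 8.02 over 8 hypothalamus markers, against 4.38 to 4.88 in the other brains. In the same brain the cortex marker Neurod6, the only one of 6 measured, read 4.43, and in the brain of vehicle-labelled rat 2 it read 4.76, against 5.66 to 8.26 in the rest. Choroid plexus markers averaged 6.31 in the brain of model-labelled rat 3 and 3.80 to 4.94 in the others. The mean over all probes lay between 5.43 and 5.48 for the brain and spleen of model-labelled rat 2, the spleen of vehicle-labelled rat 2 and the white cells of sham rat 3, and between 5.31 and 5.36 for the other arrays.

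The first question was whether any of these genes differed between the operated and sham rats, or between the operated groups, within a tissue. No member passed the test in any of the 9 pairwise comparisons (limma, Benjamini-Hochberg over all genes, adjusted p under 0.05). In brain, 0 of 10 members passed in the vehicle-labelled against sham comparison, where 0.0483% of all genes did, 0 of 10 in model-labelled against sham, where 1.16% did, and 0 of 10 in vehicle-labelled against model-labelled, where 0.0551% did. In white cells the members that passed were 0 of 10 in each of the same comparisons, with 2.01%, 0% and 1.56% of all genes. The spleen again gave 0 of 10, with 0.0483%, 0.0414% and 0% of all genes. Before adjustment, p was under 0.05 for 5, 2 and 4 members in brain, in the order of the comparisons above, and for 9.33%, 14.4% and 14.3% of all genes. In white cells it was so for 4, 1 and 2 members, and for 13.4%, 6.07% and 10.9% of all genes. In spleen it was so for 2, 4 and 1 members, and for 9.35%, 9.5% and 12.9% of all genes. These 25 of 90 pairs of a member and a comparison did not pass, and most are described below as values with their intervals. The comparisons of a tissue share arrays, so they are not separate pieces of evidence.

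**Figure D1:**
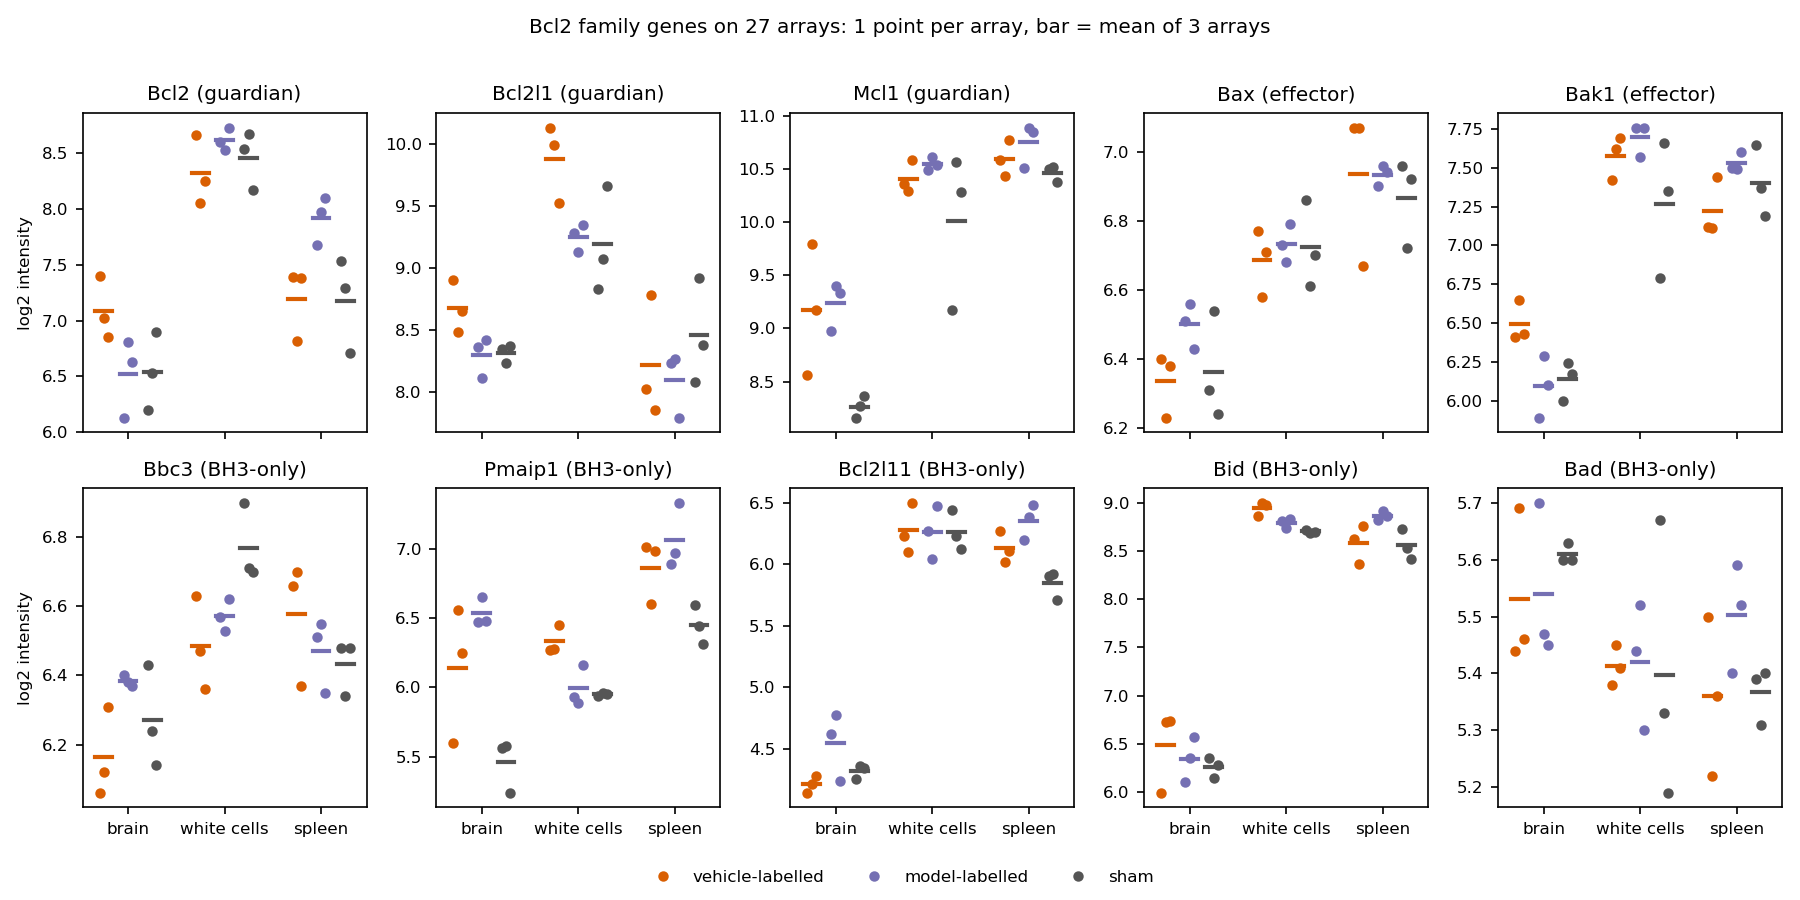
Log2 intensity of the 10 genes on the 27 arrays, with a panel for each gene. Each point is an array, each bar the mean of 3 arrays, and vertical scales differ between panels. Pmaip1 and Mcl1 in brain show the operated groups above sham, with vehicle-labelled rat 2 as the lowest operated brain in both.

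Among the guardians, Mcl1, a short-lived protein that has to be made continually, stood highest above sham in brain. Its values were 8.56, 9.79 and 9.17 in vehicle-labelled brains and 8.98, 9.40 and 9.33 in model-labelled brains, against 8.16, 8.27 and 8.36 in sham brains. Every operated brain read above every sham brain, and the vehicle-labelled brains were the most spread. The means were 9.17 ± 0.62 in vehicle-labelled, 9.24 ± 0.23 in model-labelled and 8.26 ± 0.10 in sham brains (SD, n = 3 each). The difference from sham was 0.91 (95% interval 0.32 to 1.50, limma adjusted p = 0.292) for the vehicle-labelled and 0.97 (0.39 to 1.56, adjusted p = 0.145) for the model-labelled group, a fold of 1.88 and 1.96, and it did not pass in either.

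The second Mcl1 probe did not show this. It read 6.13, 5.93 and 6.26 in vehicle-labelled, 6.28, 5.90 and 6.18 in model-labelled and 6.09, 6.13 and 6.08 in sham brains, so the groups overlapped. Its differences from sham were 0.01 and 0.02 in the vehicle-labelled and model-labelled brains (limma adjusted p = 0.994 and 0.952). It was also the dimmer probe, with a mean of 6.29 over all arrays against 9.94 for the brighter probe, and which of them follows the transcript was not tested.

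Marker averages of monocytes and macrophages and of neutrophils are given beside the Mcl1 values in brain. The monocyte and macrophage list shares Csf1r with the microglia list, so it does not separate blood-borne from resident cells. Over 7 monocyte and macrophage genes the average was 5.80, 6.28 and 6.28 in vehicle-labelled, 6.45, 6.32 and 6.39 in model-labelled and 5.90, 5.87 and 5.75 in sham brains. The lowest operated brain was vehicle-labelled rat 2, as for Mcl1, and it lay within the range of sham. Over 9 neutrophil genes the average was 4.49 to 4.74 in vehicle-labelled, 4.96 to 5.24 in model-labelled and 4.25 to 4.49 in sham brains. Of the 7 monocyte and macrophage genes 1 passed the test in model-labelled against sham and 0 in vehicle-labelled against sham, and of the 9 neutrophil genes 0 passed in either. Before adjustment p was under 0.05 for 8 neutrophil genes in model-labelled and 1 in vehicle-labelled against sham, and for 14.4% and 9.33% of all genes. The part of these cells in the Mcl1 values was not tested.

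Bcl2 and Bcl2l1, the guardians that neurons and lymphocytes are best known to use, followed another pattern in brain. Bcl2 read 7.40, 7.02 and 6.85 in vehicle-labelled, 6.13, 6.81 and 6.63 in model-labelled and 6.20, 6.53 and 6.90 in sham brains. Bcl2l1 read 8.90, 8.48 and 8.65 in vehicle-labelled, 8.36, 8.11 and 8.42 in model-labelled and 8.34, 8.23 and 8.37 in sham brains. For both genes the vehicle-labelled brains lay above all model-labelled brains, and the model-labelled and sham brains overlapped. The vehicle-labelled minus model-labelled difference was 0.57 (0.05 to 1.08, limma adjusted p = 0.317) for Bcl2 and 0.38 (0.07 to 0.69, adjusted p = 0.273) for Bcl2l1. Over 6 oligodendrocyte genes the same brains averaged 9.50, 8.87 and 9.07 when vehicle-labelled, 8.04, 7.56 and 8.74 when model-labelled and 8.59, 8.10 and 8.77 in sham, again with the vehicle-labelled brains on top, and the part of these cells was not tested. The second Bcl2l1 probe differed by 0.06 between the vehicle-labelled and model-labelled brains (adjusted p = 0.817).

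In white cells the guardian with the widest gap was Bcl2l1, which encodes Bcl-xL and is known for keeping red cell precursors alive. It read 10.13, 9.99 and 9.52 in vehicle-labelled, 9.28, 9.13 and 9.34 in model-labelled and 8.83, 9.07 and 9.66 in sham white cells. The vehicle-labelled samples lay above all model-labelled ones, and sham rat 5 reached into their range. The vehicle-labelled minus sham difference was 0.69 (0.26 to 1.12, limma adjusted p = 0.117), a fold of 1.62, and the vehicle-labelled minus model-labelled difference was 0.63 (0.20 to 1.06, adjusted p = 0.201). Leaving out the white cells of sham rat 5, the highest of its group, widened the vehicle-labelled minus sham difference to 0.93, which passed (limma adjusted p = 0.0158). The difference passed in no other alternative fit. On the second Bcl2l1 probe it was 0.31 (adjusted p = 0.472).

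Red cell genes were higher in the same samples. The average over 6 erythroid genes, among them Alas2 and Klf1, was 10.42, 10.14 and 9.52 in vehicle-labelled, 8.08, 8.17 and 8.19 in model-labelled and 7.20, 7.17 and 7.96 in sham white cells. All 6 rose in vehicle-labelled against sham and against model-labelled white cells (limma), with median differences of 2.62 and 1.79. The sample of sham rat 5, which had the highest Bcl2l1 of its group, also had the highest erythroid average of its group. Across groups it went the other way: its Bcl2l1 of 9.66 lay above all model-labelled samples, and its erythroid average of 7.96 lay below all of them. Of 9 neutrophil genes, 5 rose in vehicle-labelled against sham white cells, and the median difference was 1.21. Their part in the Bcl2l1 values was not tested.

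Mcl1 in white cells rested on a single sample. It read 10.36, 10.29 and 10.58 in vehicle-labelled, 10.49, 10.61 and 10.54 in model-labelled and 9.17, 10.57 and 10.28 in sham white cells. Sham rat 3 stood far below all others, and the remaining 8 samples lay close together. The differences from sham of 0.40 in the vehicle-labelled and 0.54 in the model-labelled group (limma adjusted p = 0.530 and 0.818) were -0.02 and 0.12 without that sample. Bcl2 in white cells ranged only from 8.05 to 8.73 over the 9 samples, and its groups overlapped.

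In spleen the guardian that differed most was Bcl2, which lymphocytes use to survive. It read 7.39, 6.82 and 7.38 in vehicle-labelled, 7.68, 7.97 and 8.10 in model-labelled and 7.53, 7.29 and 6.71 in sham spleens. Every model-labelled spleen lay above all the others. The model-labelled minus sham difference was 0.74 (0.27 to 1.21, limma adjusted p = 0.318), a fold of 1.67, and the vehicle-labelled minus model-labelled difference was -0.72 (-1.19 to -0.25, adjusted p = 0.207). The average over 7 T cell genes was 7.41, 6.71 and 7.92 in vehicle-labelled, 8.0, 7.96 and 7.95 in model-labelled and 8.11, 7.70 and 7.33 in sham spleens. The spleens with the lowest Bcl2, vehicle-labelled rat 4 and sham rat 5, also had the lowest T cell averages. Sham rat 3 had the highest T cell average, 8.11, but a Bcl2 of 7.53, below every model-labelled spleen. Of the 7 T cell genes 0 passed in any spleen comparison. Before adjustment p was under 0.05 for 3 of these genes in vehicle-labelled against model-labelled (12.9% of all genes) and for none in the other comparisons. Their part in the Bcl2 values was not tested. Splenic Mcl1 was between 10.38 and 10.89 in all 9 arrays and splenic Bcl2l1 between 7.79 and 8.92, and the groups overlapped for both.

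**Figure D2:**
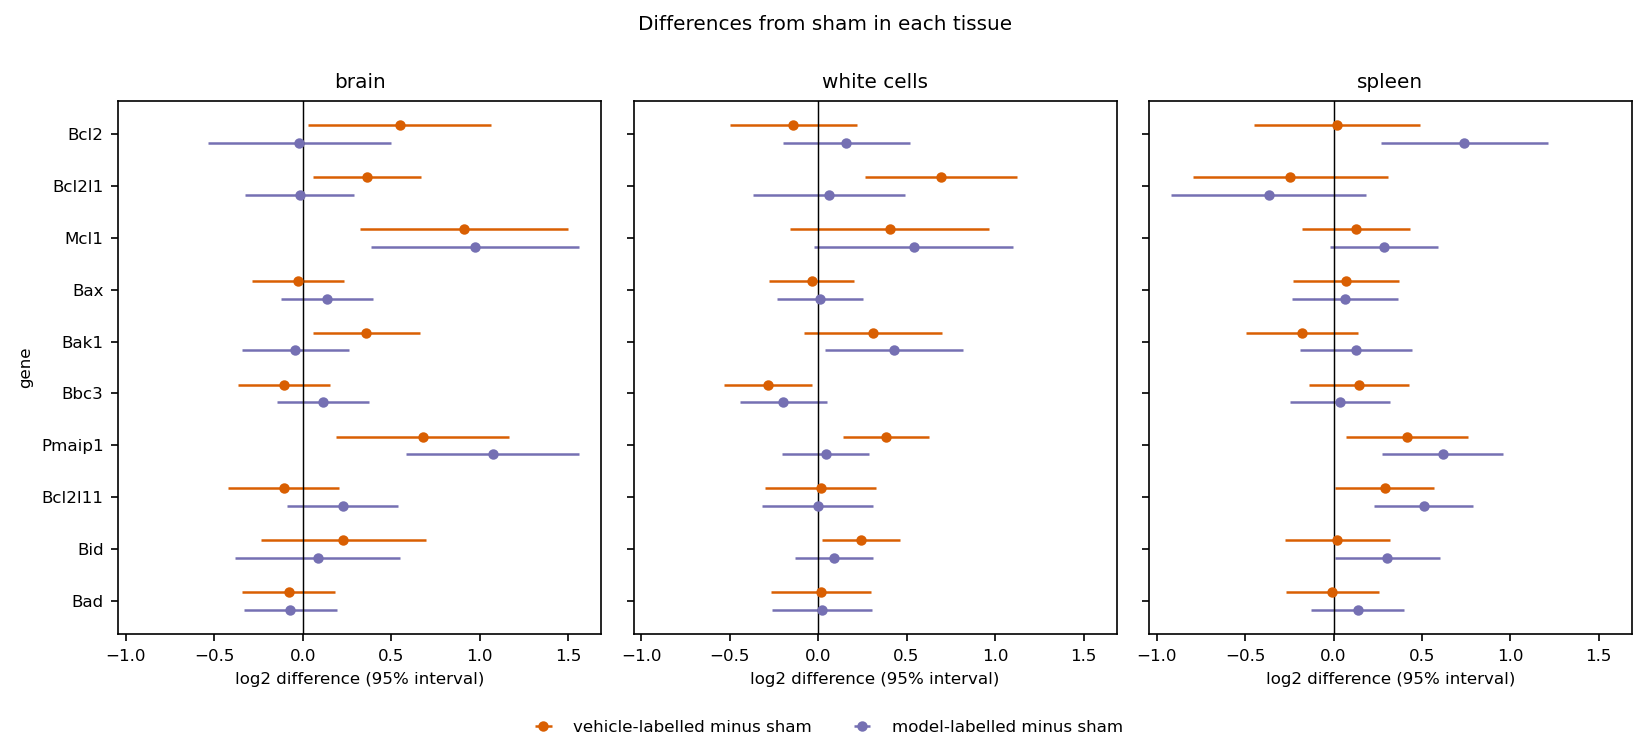
Difference from sham (log2) with its 95% interval for the 10 genes in each tissue, vehicle-labelled minus sham above model-labelled minus sham. In brain Pmaip1 lay at 0.68 and 1.07 and Mcl1 at 0.91 and 0.97, in spleen model-labelled Bcl2 lay at 0.74, and Bad and the brighter Bax probe stayed within 0.14 of sham in every tissue.

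Bax, an effector whose product forms the mitochondrial pore, varied little on its brighter probe, which ranged from 6.23 to 6.56 over the 9 brains, from 6.58 to 6.86 over the white cells and from 6.67 to 7.07 over the spleens. Its 9 pairwise differences within tissues lay between -0.16 and 0.14, their 95% intervals reached at most from -0.42 to 0.40, and none had p under 0.05. The dimmer Bax probe, with a mean of 5.13 over all arrays, differed more in spleen. There it read 5.51, 5.61 and 5.59 in vehicle-labelled, 5.58, 5.34 and 5.49 in model-labelled and 5.49, 5.04 and 5.07 in sham samples, with sham rat 3 inside the range of the operated rats. Its differences from sham were 0.37 ± 0.14 in vehicle-labelled (SE, limma adjusted p = 0.444) and 0.27 ± 0.14 in model-labelled spleens (adjusted p = 0.592), and which probe follows the transcript was not tested. Bak1, the other pore-former, read 6.41, 6.65 and 6.43 in vehicle-labelled, 5.89, 6.29 and 6.10 in model-labelled and 6.00, 6.24 and 6.17 in sham brains. The vehicle-labelled brains lay above all others, by 0.40 against model-labelled (0.10 to 0.71, limma adjusted p = 0.250) and by 0.36 against sham (0.06 to 0.66, adjusted p = 0.440). In white cells, Bak1 was 0.43 higher in the model-labelled than in the sham group (0.04 to 0.82, adjusted p = 0.783), a difference that was 0.19 without the white cells of sham rat 3, which had the lowest value, 6.79.

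Pmaip1, which encodes Noxa, a BH3-only protein that binds Mcl1 and is made in response to p53 and other stress, came nearest to the threshold of all members in the comparisons within tissues. It read 5.60, 6.56 and 6.25 in vehicle-labelled, 6.47, 6.65 and 6.48 in model-labelled and 5.56, 5.58 and 5.24 in sham brains. The model-labelled brains were close to one another and above sham, whereas among the vehicle-labelled brains that of rat 2 stood at the level of sham. Means were 6.14 ± 0.49 in vehicle-labelled, 6.53 ± 0.10 in model-labelled and 5.46 ± 0.19 in sham brains (SD, n = 3 each). The model-labelled minus sham difference was 1.07 ± 0.22 (SE, 95% interval 0.58 to 1.56, limma adjusted p = 0.0555), a fold of 2.10. The vehicle-labelled minus sham difference was 0.68 ± 0.22 (0.19 to 1.17, adjusted p = 0.355), a fold of 1.60.

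Both brain values moved with the samples and the settings used. Without the brain of vehicle-labelled rat 2, Pmaip1 passed in model-labelled against sham (1.07, limma adjusted p = 0.00521) and in vehicle-labelled against sham (0.95, adjusted p = 0.0361), and so did Mcl1 (0.97 and 1.22, adjusted p = 0.0314 and 0.0361). The model-labelled minus sham differences themselves did not change in this fit. Their SE fell, to 0.14 for Pmaip1 and 0.18 for Mcl1, because the groups share a variance and the vehicle-labelled brains spread less. That brain was the lowest operated one for both genes, so leaving it out had to widen the vehicle-labelled minus sham differences. The model-labelled minus sham difference of Pmaip1 passed in 7 of 17 alternative fits, with adjusted p between 0.000361 and 0.346 and differences between 0.96 and 1.37. Of these, 0.346 and 1.37 came from the fit with the replicate number as a block, which pairs nothing between groups. The lowest, 0.000361, came from the fit of all 27 arrays, which shares a variance per gene across tissues whose variances can differ. The model-labelled minus sham difference of Mcl1 passed in 3 of 17, with adjusted p between 0.0231 and 0.320. The vehicle-labelled minus sham difference passed in 2 of 17 fits for each gene, and it ran from 0.47 to 0.95 for Pmaip1 (adjusted p up to 0.756) and from 0.46 to 1.27 for Mcl1 (adjusted p up to 0.649). Without the brain of vehicle-labelled rat 4 it was 0.47 for Pmaip1 and 0.60 for Mcl1. With both operated groups averaged, the difference from sham was 0.88 ± 0.19 for Pmaip1 (adjusted p = 0.0877) and 0.94 ± 0.23 for Mcl1 (adjusted p = 0.125). In this comparison 0 of 10 members passed (2 with p under 0.05 before adjustment, as 11.3% of all genes) and 0.8% of all genes did, and the groups did not overlap for 2 of 10 members, Pmaip1 and Mcl1, and for 4.58% of all genes.

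Pmaip1 in white cells read 6.27, 6.28 and 6.45 in vehicle-labelled, 5.93, 5.89 and 6.16 in model-labelled and 5.94, 5.96 and 5.95 in sham samples. The vehicle-labelled samples lay above all others, by 0.38 against sham (0.14 to 0.63, limma adjusted p = 0.129) and by 0.34 against model-labelled (0.09 to 0.59, adjusted p = 0.238). The erythroid averages given above were highest in the same 3 samples, and so were the averages over 9 neutrophil genes, 8.86 to 9.34 in vehicle-labelled, 7.58 to 8.13 in model-labelled and 7.24 to 7.61 in sham white cells. The part of these cells in the Pmaip1 values was not tested. In spleen it read 7.01, 6.60 and 6.98 in vehicle-labelled, 6.89, 6.97 and 7.33 in model-labelled and 6.59, 6.44 and 6.31 in sham samples. Both operated groups lay above sham, vehicle-labelled rat 4 by the narrowest margin. The differences from sham were 0.42 (0.07 to 0.76, adjusted p = 0.456) in vehicle-labelled and 0.62 (0.27 to 0.96, adjusted p = 0.247) in model-labelled spleens.

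Bcl2l11, which encodes Bim, a direct activator of the effectors that limits lymphocyte numbers, had operated and sham arrays that did not overlap in spleen, while they overlapped in brain and in white cells. In spleen it read 6.27, 6.02 and 6.11 in vehicle-labelled, 6.20, 6.38 and 6.48 in model-labelled and 5.90, 5.92 and 5.71 in sham samples. All operated spleens lay above all sham spleens. The difference from sham was 0.29 (0.01 to 0.57, limma adjusted p = 0.519) in vehicle-labelled and 0.51 (0.23 to 0.79, adjusted p = 0.247) in model-labelled spleens. In the comparison of both operated groups with sham, 0 of 10 members passed in spleen (2 with p under 0.05 before adjustment, as 8.16% of all genes) and 0.0965% of all genes did, and the groups did not overlap for 2 of 10 members, Pmaip1 and Bcl2l11, and for 3.35% of all genes. In brain Bcl2l11 was dim, between 4.14 and 4.77, so its brain differences were measured with little signal.

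Bid, whose product is cut by caspase-8 and links death receptors to the mitochondria, read 8.86, 9.0 and 8.98 in vehicle-labelled, 8.81, 8.74 and 8.83 in model-labelled and 8.72, 8.69 and 8.70 in sham white cells. The 3 groups did not overlap, and the steps were small: 0.24 between vehicle-labelled and sham (0.02 to 0.46, limma adjusted p = 0.325) and 0.09 between model-labelled and sham (-0.13 to 0.31, adjusted p = 0.919). In spleen it was 0.30 higher in model-labelled than in sham rats (0.01 to 0.60, adjusted p = 0.519), and in brain it ranged from 5.99 to 6.74 with overlapping groups. Bbc3, which encodes Puma, a p53 target, was lower in operated than in sham white cells, at 6.63, 6.47 and 6.36 in vehicle-labelled, 6.57, 6.53 and 6.62 in model-labelled and 6.90, 6.71 and 6.70 in sham samples. The highest, 6.90, was that of sham rat 3, whose white cell array stood apart in its mean over all probes, and it raised the sham mean. The groups did not overlap with sham, and the differences from sham were -0.28 (-0.53 to -0.04, adjusted p = 0.301) for vehicle-labelled and -0.20 (-0.44 to 0.05, adjusted p = 0.852) for model-labelled white cells. With both operated groups set against sham in white cells, 0 of 10 members passed (4 with p under 0.05 before adjustment, as 9.89% of all genes) and 0.931% of all genes did, and the groups did not overlap for 2 of 10 members, Bbc3 and Bid, and for 3.73% of all genes. Bad, which is switched by phosphorylation, lay between 5.19 and 5.70 on all arrays, and its 9 differences ran from -0.14 to 0.14 with no p under 0.05.

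Counted over the list, the groups did not overlap for 4 of 10 members in vehicle-labelled against sham brains, where 13.4% of all genes did not, for 2 in model-labelled against sham (20.1%) and for 5 in vehicle-labelled against model-labelled (21.5%). In white cells the counts were 3, 2 and 3, against 15.3%, 11.1% and 18.9% of all genes. In spleen they were 2, 4 and 3, against 13.2%, 17.3% and 14.7%. The median difference of the members was 0.30 in vehicle-labelled against sham brains, where that of all genes was 0.01, and 0.10 in model-labelled against sham brains, where that of all genes was 0.03. In vehicle-labelled against model-labelled brains the medians were -0.04 for the members and -0.01 for all genes. In white cells the members' medians were 0.13, 0.05 and -0.03 in the same order of comparisons, and those of all genes were -0.06, -0.04 and -0.02. In spleen the members' medians were 0.045, 0.21 and -0.18, and those of all genes were 0.04, 0.07 and -0.02.

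**Figure D3:**
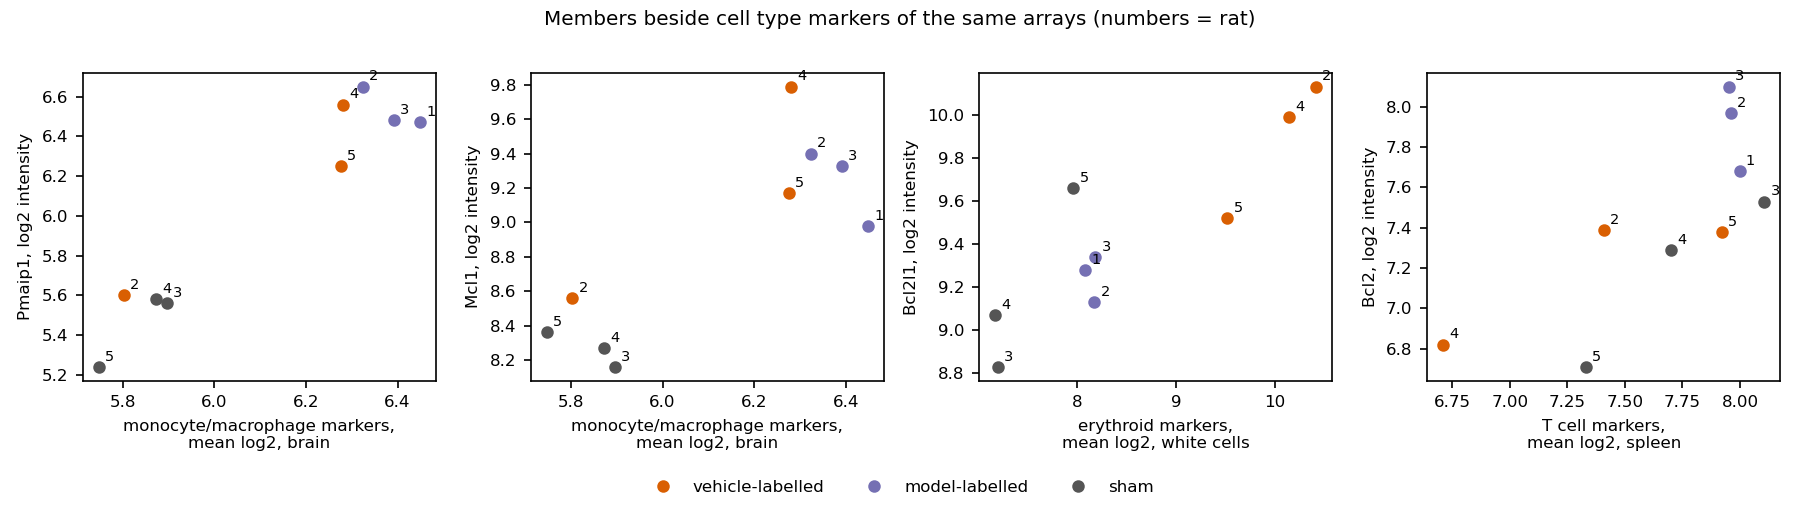
Level of a member against the mean level of a marker list on the same array, both in log2 intensity, with a point for each of 9 arrays and the number of the rat beside it. From the left, Pmaip1 and Mcl1 are set against 7 monocyte and macrophage genes in brain, Bcl2l1 against 6 erythroid genes in white cells, and Bcl2 against 7 T cell genes in spleen. In the panels for brain the marker average of vehicle-labelled rat 2 lies within the sham range. Its Pmaip1 lies just above the sham brains and its Mcl1 further above them.

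Operated minus sham differences, averaged over both operated groups, were set against each other across tissues in a joint model of the 27 arrays. This average cannot tell the operation from the YJ treatment. For the difference between brain and white cells 0 of 10 members passed and 0.896% of all genes did. The counts were 0 of 10, against 0.641%, for brain and spleen, and 0 of 10, against 0.4%, for white cells and spleen. Before adjustment 1, 1 and 3 members had p under 0.05 in these comparisons, and 11.4%, 8.82% and 9.22% of all genes. Pmaip1 had the lowest p, with an operated minus sham difference that was 0.66 ± 0.21 larger in brain than in white cells (SE, 0.22 to 1.10, limma adjusted p = 0.181). Without the brain of vehicle-labelled rat 2, the lowest operated brain, this was 0.80 and passed (limma adjusted p = 0.0126), and it passed in no other alternative fit. For Mcl1 the difference between the brain and spleen effects was 0.74 (0.08 to 1.39, adjusted p = 0.479).

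Differences between the tissues of sham rats were larger, on values for which a joint normalization of the tissues is not stated. Most members were lower in brain than in either of the other tissues. Of 10 members 7 were lower in brain than in spleen (limma, adjusted p under 0.05), where 51.2% of all genes passed in either direction and 26.4% were lower, and 9 were lower in brain than in white cells, where 55.1% passed and 28.2% were lower. Between white cells and spleen 3 members were higher in white cells and 1 was lower, where 33.7% of all genes passed, 16% higher and 17.8% lower. Without the spleen of sham rat 3 or of sham rat 5 only 2 members passed between white cells and spleen. The groups did not overlap for 7, 9 and 4 members in these comparisons, in that order against 58.2%, 61.9% and 52.5% of all genes.

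Among the 10 members Bid had the widest differences in both comparisons with brain. It read 6.35, 6.14 and 6.28 in sham brains, 8.72, 8.69 and 8.70 in sham white cells and 8.73, 8.53 and 8.42 in sham spleens. The brain minus spleen difference was -2.30 ± 0.12 (SE, limma adjusted p = 2.96e-08), a fold of 4.94, and the brain minus white cell difference was -2.45 (adjusted p = 1.59e-08). White cells and spleen differed by 0.14 (-0.12 to 0.41, adjusted p = 0.381). Bcl2l11 differed by -1.53 between brain and spleen (adjusted p = 1.09e-06) and by -1.95 between brain and white cells (adjusted p = 1.25e-07), and it was 0.42 higher in white cells than in spleen (adjusted p = 0.0236). Pmaip1 was the 1 member with its highest sham level in spleen by differences that passed against both other tissues, -0.99 for brain minus spleen (adjusted p = 5.82e-05) and -0.50 for white cells minus spleen (adjusted p = 0.0134). Over 16 alternative fits the white cell minus spleen calls were kept in 14 for Bcl2l11, in 13 for Pmaip1 and in 11 for Bcl2l1.

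**Figure D4:**
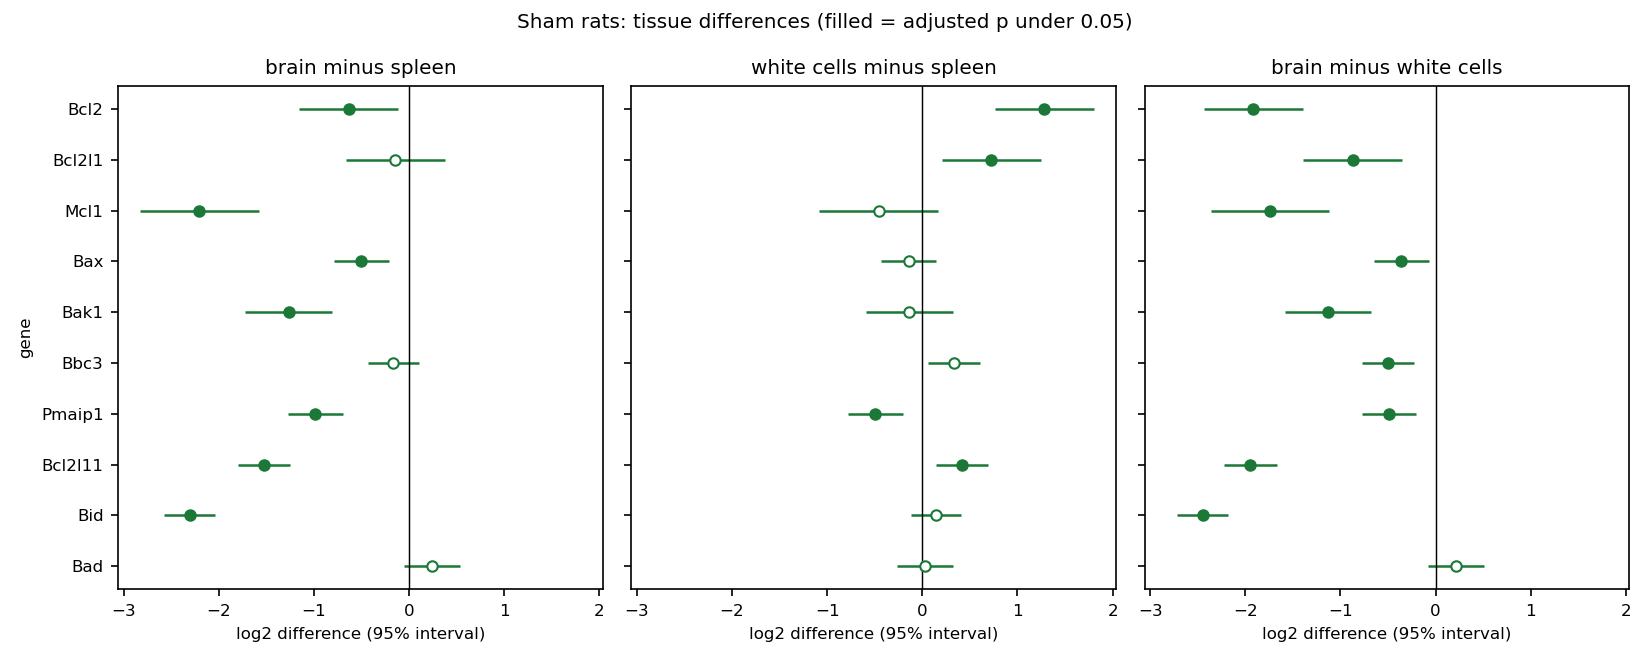
Tissue differences in sham rats (log2) with 95% intervals for the 10 genes, brain minus spleen, white cells minus spleen and brain minus white cells. Filled points have an adjusted p under 0.05. Bid and Bcl2l11 lie far to the left in both comparisons with brain, and Bad lies on the right of 0 in all 3.

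Among the guardians of sham rats, Mcl1 differed by -2.20 ± 0.28 between brain and spleen (SE, limma adjusted p = 4.42e-05) and by -1.74 between brain and white cells (adjusted p = 0.000264). The second Mcl1 probe differed by -0.12 (adjusted p = 0.463) and -0.38 (adjusted p = 0.0158), so the call against spleen was absent on that probe. Bcl2 was highest in white cells, with a brain minus white cell difference of -1.92 (adjusted p = 3.02e-05) and a white cell minus spleen difference of 1.28 (adjusted p = 0.00168). Its brain minus spleen difference of -0.63 passed (adjusted p = 0.0428) while the arrays overlapped, and it passed in 7 of 16 alternative fits (adjusted p = 0.0595 with the rat as a block). Bcl2l1 was 0.73 higher in white cells than in spleen (adjusted p = 0.0355) and its brain minus white cell difference was -0.87 (adjusted p = 0.00841). Between brain and spleen it differed by -0.15 (-0.67 to 0.37, adjusted p = 0.673).

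Of the effectors in sham rats, Bak1 was lower in brain than in both other tissues, with differences of -1.27 against spleen (limma adjusted p = 0.000295) and -1.13 against white cells (adjusted p = 0.000655). Bax was likewise lower, with differences of -0.50 (adjusted p = 0.00695) and -0.36 (adjusted p = 0.0370). Its call against white cells was kept in 11 of 16 alternative fits and was lost without the brain of sham rat 5 (-0.30, adjusted p = 0.101). White cells and spleen differed by -0.14 for each effector, with adjusted p of 0.631 for Bak1 and 0.419 for Bax. The BH3-only gene Bbc3 had a brain minus white cell difference of -0.50 (adjusted p = 0.00487), and its white cell minus spleen difference of 0.34 had an adjusted p of 0.0568, or 0.0465 with the rat as a block. Bad was the member whose brain level was not below that of any tissue, at 0.24 above spleen (-0.05 to 0.54, adjusted p = 0.165) and 0.21 above white cells (-0.08 to 0.51, adjusted p = 0.198). Centring each array on its median moved the median of all genes in the white cell minus spleen comparison to 0.28, against 0.12 as deposited. It left 9 members lower in brain than in white cells and 6 lower than in spleen, with Bcl2 dropping out, and between white cells and spleen it gave 4 members higher and 0 lower, so the call for Pmaip1 was lost.

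The genes around the family were read from 5 lists with 69 of 77 genes measured. In brain the only list with several genes that passed was drawn up as regulators upstream of the BH3-only genes, with 14 measured. It also holds stress and cell cycle genes such as Gadd45b and Cdkn1a, and whether its genes act on BH3-only genes here was not tested. Of the 14 genes 5 rose and 0 fell in model-labelled against sham brains (limma), where 1.16% of all genes passed and 1.08% rose. The list's median difference was 0.39 against 0.03 for all genes. The count was 1, Gadd45b, without the brain of model-labelled rat 1, 2 or 3 or of sham rat 3 or 4, and 3 without that of sham rat 5 or of vehicle-labelled rat 5. Gadd45b, a growth arrest and stress gene, averaged 7.94 ± 0.58 in vehicle-labelled, 8.15 ± 0.06 in model-labelled and 5.98 ± 0.44 in sham brains (SD, n = 3 each), and rose by 2.17 ± 0.28 in the model-labelled group (SE, adjusted p = 0.0063). Jun, a subunit of AP-1, rose by 1.80 (adjusted p = 0.0332), and Atf4, a transcription factor of the integrated stress response, by 0.73 (adjusted p = 0.0454). Atf3, another stress-induced factor, averaged 6.91 ± 1.24 in vehicle-labelled, 7.33 ± 0.22 in model-labelled and 4.46 ± 0.18 in sham brains and rose by 2.87 in the model-labelled group (adjusted p = 0.0236). The fifth gene that rose was Cdkn1a, which encodes the cell cycle inhibitor p21.

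No gene of this list passed in vehicle-labelled against sham brains (7 had p under 0.05 before adjustment, as had 9.33% of all genes). The list's median there was 0.45, against 0.01 for all genes. Without the brains of sham rat 5 and vehicle-labelled rat 2 together, 5 of its genes rose in that comparison, Atf3, Ddit3, Gadd45a, Gadd45b and Jun, named after their values were seen. The share of all genes that passed in that fit is not given here, so this count has nothing to be set against. Of 12 measured genes that act on the family's proteins, 1 rose in model-labelled against sham brains, Pim1, a kinase that phosphorylates Bad. Pim1 averaged 6.72 ± 0.14 in vehicle-labelled, 7.58 ± 0.19 in model-labelled and 5.92 ± 0.18 in sham brains (SD, n = 3 each), a rise of 1.65 ± 0.14 in the model-labelled group (SE, adjusted p = 0.00107).

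The other lists held few calls. Of 14 measured further members of the Bcl2 family, 1 fell in model-labelled against sham brains, Bnip3, a mitochondrial protein known for mitophagy, which averaged 9.24 ± 0.11 in vehicle-labelled, 9.0 ± 0.15 in model-labelled and 9.65 ± 0.06 in sham brains (SD, n = 3 each) and fell by 0.65 in the model-labelled group (limma adjusted p = 0.0315). None of 15 measured apoptosome, caspase and inhibitor genes and none of 14 measured death receptor genes passed in any comparison within a tissue, and before adjustment p was under 0.05 for 0 to 3 of the first and 0 to 4 of the second in each comparison. Without the brains of sham rat 5 and vehicle-labelled rat 2, 4 death receptor genes rose in model-labelled against sham brains, Ripk3, Tnf, Tnfrsf12a and Tnfrsf1a, named after their values were seen. For this fit too the share of all genes that passed is not given here. In spleen no gene of the 5 lists passed, and in each comparison 0 to 4 genes of a list had p under 0.05 before adjustment.

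In white cells the calls among these lists were in the vehicle-labelled group. Bnip3l, whose product clears mitochondria from maturing red cells, averaged 11.03 ± 0.35 in vehicle-labelled, 10.08 ± 0.09 in model-labelled and 10.02 ± 0.20 in sham white cells (SD, n = 3 each). It rose by 1.01 against sham (limma adjusted p = 0.00402) and by 0.95 against model-labelled (adjusted p = 0.0086). Bcl2l13, another mitochondrial family member, rose by 0.65 against sham (adjusted p = 0.00922) and by 0.58 against model-labelled (adjusted p = 0.0225). Gadd45a, a relative of Gadd45b, rose by 0.99 in vehicle-labelled against model-labelled white cells (adjusted p = 0.0085). The erythroid averages given above were highest in the same 3 samples, and their part in these rises was not tested.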

How the data were processed

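Gene expression had been measured on Affymetrix rat arrays. Per the submitters' processing notes, the authors made the values with RMA, whose version and joint use across tissues are not stated; a genome build is not given in the sources used here. The deposited values were taken as log2 intensities on the strength of their range, 1.53 to 13.49, and of array medians of 4.96 to 5.31. No further normalization was applied. RMA tends to compress differences of dim probes, and the number of arrays limits the precision.

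Of 27596 probes, 15310 had 1 gene symbol in the platform table and were used, 323 had several and 11963 none. RefSeq matched 15279 probes and changed 0 symbols. The brightest probe per gene left 14506 genes.

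The 9 arrays of a tissue entered a limma model of group means (version 3.58.1, R 4.3.3, lmFit and eBayes, 2-sided tests), which left 6 residual degrees of freedom. P-values were adjusted by Benjamini-Hochberg over all genes of a comparison and called under 0.05. Sham tissues were compared over the 9 sham arrays, and effects between tissues over all 27. The labels do not say more of how rats were replicated, so p-values measure the spread between these samples. Replicate arrays correlated at 0.968 to 0.995 and 0 pairs were identical.

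Each rat gave 3 tissues, per the series' design text, so the rat is a block between tissues. Across genes, a rat's deviations from the group means in its tissues correlated at -0.058 to 0.517 (median 0.133, 15 of 27 pairs over 0.1), against a median of -0.048 for different rats of a group. Numbers shared by different groups belong to different rats and pair nothing (12 pairs, median -0.030).

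The members, gene lists and tests were chosen with earlier results of these data known. Named genes are the 10 members and, per list and comparison within a tissue, up to 4 called genes with the smallest p. The fits were tested on simulated data. Alternatives were the normalization, a filter on dim genes, the probes of a gene, the variance prior, the arrays in the fit, the replicate block and each array left out. Gene and protein sequences were not used here.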

Additional observations from a re-analysis of the deposited data

Results flagged for a closer look

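No member of the family had an effect of the operation that differed between tissues after adjustment. Among the 69 measured genes of the surrounding lists 8 did, by the test of the difference itself in a fit of all 27 arrays (limma, both operated groups averaged, minus sham). Of all genes 0.896% passed for brain against white cells and 0.641% for brain against spleen. For white cells against spleen 0.4% of all genes passed and no gene of the lists did. These shares are each of a single comparison, unlike the count of 8. The lists were chosen with earlier results of these data known. Each of the 27 arrays was also left out in turn, an alternative chosen after seeing the calls. All differences named here kept their direction in these fits, and the calls of Atf3, Gadd45b and Pim1 against spleen, and of Atf3 and Gadd45b against white cells, were kept in all 27.

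The stress-induced factor Atf3 had an operated minus sham difference of 2.66 in brain, -0.07 in white cells and 0.05 in spleen. Its brain effect exceeded that in white cells by 2.73 ± 0.42 (SE, adjusted p = 0.000843) and that in spleen by 2.61 (adjusted p = 0.0016). For Gadd45b the differences were 2.07 in brain, 0.15 in white cells and -0.02 in spleen, and brain exceeded white cells by 1.91 ± 0.26 (adjusted p = 0.000246) and spleen by 2.09 (adjusted p = 0.000128). Gadd45a had 1.08 in brain, which did not pass (limma adjusted p = 0.0989), 0.20 in white cells and -0.55 in spleen. The operated groups lay on either side of sham in white cells, at 8.99 in vehicle-labelled, 8.0 in model-labelled and 8.30 in sham samples. The gap of Gadd45a between brain and spleen was 1.62 ± 0.37 (adjusted p = 0.0402), which passed in 8 of the 27 fits (adjusted p up to 0.176). Atf4 had 0.66 in brain, -0.15 in white cells and 0.05 in spleen, and the gap between brain and white cells was 0.81 ± 0.17 (adjusted p = 0.0116), lost without the white cells of sham rat 3 or 5 (adjusted p up to 0.0543).

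Pim1, the kinase that phosphorylates Bad, had an operated minus sham difference of 1.22 in brain, 0.40 in white cells and -0.06 in spleen. Brain exceeded white cells by 0.82 ± 0.19 (adjusted p = 0.0307, kept in 17 of the 27 fits) and spleen by 1.28 (adjusted p = 0.000559). Bnip3 ran the other way, with -0.53 in brain, which did not pass (limma adjusted p = 0.0513), 0.20 in white cells and 0.23 in spleen. Its brain effect lay below that in white cells, a gap of -0.73 ± 0.16 (adjusted p = 0.0211, lost without the white cells of sham rat 4 or 5 or the brain of sham rat 3 or 5), and below that in spleen, a gap of -0.76 (adjusted p = 0.0205, lost without the brain of sham rat 3 or the spleen of sham rat 4). Of the death receptor genes, the cytokine gene Tnf had 0.87 in brain, which did not pass (limma adjusted p = 0.193), -0.03 in white cells and -0.39 in spleen. In spleen only the vehicle-labelled group lay below sham, at 4.42, against 5.26 in model-labelled and 5.22 in sham samples. The gap of Tnf between brain and spleen was 1.26 ± 0.25 (adjusted p = 0.0144), lost without the spleen of sham rat 3 or 4 (adjusted p up to 0.0719). The receptor gene Tnfrsf12a had 0.87 in brain, which did not pass (limma adjusted p = 0.0677), -0.24 in white cells and 0.19 in spleen. Its gap between brain and white cells was 1.11 ± 0.24 (adjusted p = 0.0160), lost without the white cells or the brain of sham rat 3 (adjusted p up to 0.0930).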

How the results depend on the processing

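Over all fits tried, 3447 differences of the members kept their direction, where called, and their side of the threshold, 25 lost a call, 28 gained one and no called difference changed sign. In brain, model-labelled against sham, the count of members that passed, 0 as reported, was 1 (Pmaip1) with quantile normalization, with genes above the 40th percentile only and with a variance trend and robust prior, and 2 (Pmaip1 and Mcl1) with all 27 arrays in the fit and without the brains of sham rat 5 and vehicle-labelled rat 2 together. Leaving out each array gave 0 to 2, while 70 to 256 of all genes passed (168 as reported). In vehicle-labelled against sham brains the count was 2 without that pair. With each array left out it was 0 to 2, while 0 to 106 of all genes passed (7 as reported). For both operated groups it was 2 with all 27 arrays and 2 without the pair. With each array left out it was again 0 to 2, while 15 to 245 of all genes passed (116 as reported). In these fits the calls over all genes moved as well as those of the members. Leaving out each array gave 0 to 1 in vehicle-labelled against sham white cells, 0 to 1 for the difference of effects between brain and white cells, and 2 to 5 between sham white cells and spleens (4 as reported, 2 without the spleen of sham rat 3 or of sham rat 5). Sham brains gave 6 to 7 members lower than spleens and 8 to 9 called against white cells, where the call of Bax was lost in 5 of 9 such fits and Bad gained one without the white cells of sham rat 3 (0.35, adjusted p = 0.0205).

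With the replicate number as a block, which pairs nothing between groups, 0 members and 0 genes of the 5 lists passed within a tissue. This block takes up most of the 6 residual degrees of freedom, so calls lost in it cannot decide whether they hold. It is counted among the alternative fits within a tissue. In sham rats the rat as a block gave 6, 5 and 9 members, against 7, 4 and 9 without it, and it changed no call of a member other than those of Bcl2 and Bbc3 given above. The consensus correlation of a rat's arrays was 0.0957. The replicate block took Pmaip1 in model-labelled against sham brains to 1.37 (adjusted p = 0.346).

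Centring on medians moved the share of higher calls among all genes to 72.7% between sham white cells and spleens, against 47.3% as deposited, to 35.4% between sham brains and white cells, against 48.7%, and to 82.8% in model-labelled against sham brains, against 93.5%. The calls of the lists varied with the fit: Gadd45b and Pim1 in model-labelled against sham brains kept theirs in 16 of 17 fits each, Atf3 in 10, Jun in 9, and Bnip3 and Atf4 in 8. In vehicle-labelled white cells Bnip3l kept its calls in 15 (against sham) and 12 (against model-labelled) of 16 fits, Bcl2l13 in 14 and 9, and Gadd45a, against model-labelled, in 13. With 3 arrays a group, missing the threshold does not show that a member was alike in the groups. The second probes were compared after seeing that 3 members had one. The labels give no hybridization batch, and group and batch cannot be told apart.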
